A study of Mus musculus with 12 samples.

Results

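The 60 loci described here were expressed in mouse embryonic stem cells (ESCs) and had fallen to a similar low level in both cell fractions sorted at day 3 of differentiation, the Eomes-negative (Eo-) and the Eomes-positive (Eo+) cells. They were chosen from the measured values themselves. A locus was a member when the annotation gave it a gene name, its mean normalized value over the ESC libraries was at least 5, its mean in Eo- and its mean in Eo+ were each at most 25% of the ESC mean, and both fractions lay within 1.5-fold of each other (0.01 was added to every mean). Of 22187 loci in the normalized table, 18327 had such a name, 10112 of these reached the ESC minimum, 246 were at or below 25% of ESC in both fractions, and 60 of the 246 also met the bound between the fractions. Of the remaining 186 loci that fell in both fractions, 174 were more than 1.5-fold lower in Eo+ than in Eo- and 12 were more than 1.5-fold higher. The members comprised 59 loci with a protein-coding gene and 1 long noncoding RNA (lncRNA) locus. Because the rule used all 3 comparisons among the groups, the members' changes in those comparisons are a description and carry no test.

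Poly(A) RNA was sequenced from 12 libraries of a single mouse ESC line, labelled C57BL/6, in which an EGFP cassette inserted at the transcription start of Eomes reports the activity of that gene, which encodes a T-box factor needed for mesoderm and endoderm. All 3 groups, with 4 libraries each, carried this reporter. ESC libraries came from undifferentiated cells at day 0, grown on mouse embryonic fibroblast feeders in medium with leukemia inhibitory factor (LIF). Eo- and Eo+ libraries came from embryoid bodies at day 3, formed in hanging drops and sorted by EGFP fluorescence into GFP-negative and GFP-positive cells. The recipe of the differentiation medium names no LIF. Whether feeder cells were removed from the ESC libraries is not given in the sources used here. Libraries carried the numbers 1, 2, 5 and 6 in each group, for 4 differentiation sets, and values below are given in that order. The methods do not say how the ESC cultures of the sets were kept apart, so p-values measure the spread between these libraries.

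LIF keeps mouse ESCs self-renewing by binding a receptor made of Lifr and gp130, which activates the kinase Jak1 and the transcription factor Stat3. Stat3 switches on its own feedback inhibitor Socs3, the kinase Pim1 and transcription factors such as Klf4 and Gbx2, which together with Klf5 hold the naive pluripotent state. When cells leave that state this network is taken down early, in whichever lineage they enter. Fibroblasts, in contrast, are known for genes of the contractile cytoskeleton and of the extracellular matrix, several of which are also found among the 60 loci.

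Sequences from RefSeq (GRCm38.p6) are shown for members that recur below. Of 65 gene names borne by the 60 loci, 46 had a promoter in the RefSeq table, which runs from 250 bases before to 50 bases after an annotated start. Stretches of 100 bases upstream of the start are given 5′ to 3′ on the gene's strand, with matches to a TATA box, an AP-1 site or a STAT site in capitals. They are shown because the genes fell together, namely Klf4 and Socs3 of the LIF response, Icam1 and S100a4 of the adhesion and cytoskeletal group, and Plaur of the protease group. Klf4, at chr4:55532476-55532575 on the minus strand, held none of these motifs in the stretch shown, and this start lies 65579 bases inside the longer assembled locus. Socs3, at chr11:117969457-117969556 on the minus strand, runs from 190 to 91 bases before the start, further upstream than the other stretches, so as to hold a STAT match from 154 to 146 bases before it. Icam1, at chr9:21015840-21015939 on the plus strand, held a STAT match from 42 to 34 bases before the start. S100a4, at chr3:90603670-90603769 on the plus strand, held a TATA box from 31 to 26 bases before the start. Plaur, at chr7:24462383-24462482 on the plus strand, held an AP-1 match from 69 to 63 bases before the start.
Klf4: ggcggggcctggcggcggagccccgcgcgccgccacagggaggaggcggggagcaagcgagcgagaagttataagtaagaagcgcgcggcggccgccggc
Socs3: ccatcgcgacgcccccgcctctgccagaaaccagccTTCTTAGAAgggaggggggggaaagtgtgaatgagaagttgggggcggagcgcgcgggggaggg
Icam1: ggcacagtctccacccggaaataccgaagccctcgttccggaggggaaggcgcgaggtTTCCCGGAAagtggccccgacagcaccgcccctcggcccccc
S100a4: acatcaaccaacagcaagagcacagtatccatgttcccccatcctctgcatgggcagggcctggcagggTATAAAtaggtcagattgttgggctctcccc
Plaur: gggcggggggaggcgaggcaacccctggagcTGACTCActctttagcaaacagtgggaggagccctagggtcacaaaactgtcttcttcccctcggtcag

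Members also overlap miRNA genes, and 4 mature miRNAs are shown because their hosts are described below. The lncRNA locus Gm26532 spans the miR-24-2 hairpin at chr8:84208815-84208921 on the plus strand, and Trpm1 spans the miR-211 hairpin at chr7:64205806-64205911 on the plus strand. Capitals mark the seed, bases 2 to 8, and no seed is shared among the 4. Only the poly(A) host transcripts were measured, not the mature miRNAs.
miR-24-3p: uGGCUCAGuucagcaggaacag
miR-24-2-5p: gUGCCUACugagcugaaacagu
miR-211-5p: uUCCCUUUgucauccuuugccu
miR-211-3p: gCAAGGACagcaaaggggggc

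Locus counts ranged from 648413022 to 837308168 per library, so 3 counts corresponded to at most 0.00476 normalized units. Values throughout are the deposited normalized values, which are counts divided by 1 constant per library and resemble CPM, unless another scale is named. Eomes, the gene behind the sort, lay between 36.4 and 57.8 in ESC, between 118 and 171 in Eo- and between 450 and 656 in Eo+ libraries, so the 3 groups did not overlap. In bulk libraries, fewer cells of a type and less RNA per cell cannot be told apart. Of 15 haematopoietic markers, 7 had an ESC mean under 1, among them Ptprc, Csf1r and Spi1, and of 30 fibroblast matrix genes Dcn and Lum did.

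Across the 60 loci the median residual level was 12% of the ESC mean in Eo- and 10.7% in Eo+, and 24 loci were at or below 10% in both. The Eo+ mean was the lower for 37 members and the higher for 23, with a median Eo+ to Eo- ratio of 0.919. For the 246 loci that fell in both fractions, members included, it was 0.379, a contrast that the 1.5-fold bound of the rule built in. Every ESC library exceeded every day 3 library for all 60 loci, a separation found for 21.5% of the 17207 loci tested. In limma, 60 of 60 members were called lower in Eo- (30.8% of all tested loci), 60 of 60 lower in Eo+ (35.6%) and 60 of 60 lower in both (26.2%), and none was called higher in both (24.5%). The rule fixed these counts and nothing is read from them. Both comparisons share the ESC libraries.

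**Figure D1:**
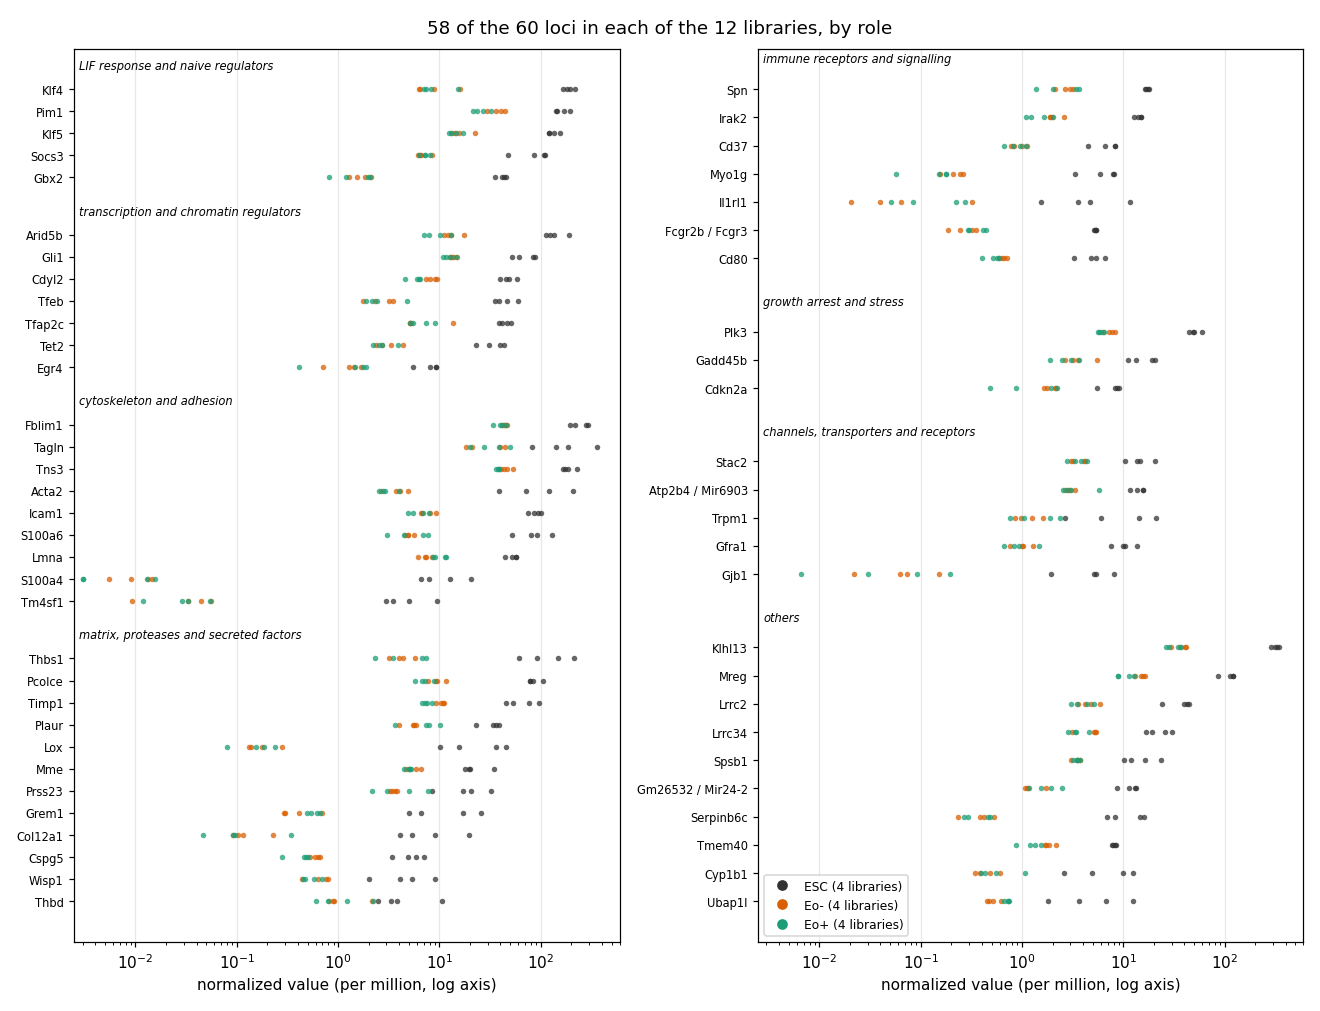
Normalized value (log axis) of 58 of the 60 loci in the 12 libraries, grouped by role, with 1 point per library coloured by group (ESC, Eo-, Eo+; 4 each). Values under 0.003 are drawn at 0.003. All ESC points of a locus lie to the right of its day 3 points, the Eo- and Eo+ means lie within 1.5-fold by construction, and the ESC points of Trpm1 are spread most widely (SD 1.31 on the log2 scale).

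The 5 members of the LIF response and the naive network fell to between 3.69% and 23.2% of their ESC mean. Klf4 (XLOC_050470, chr4:55527139-55598054, minus strand in mm10), a transcription factor that LIF induces, stood at 179, 217, 165 and 193 in the ESC libraries, at 16.0, 8.79, 6.27 and 6.42 in Eo- and at 15.3, 8.33, 7.02 and 7.38 in Eo+. Its day 3 libraries were all at least 10.3-fold below the lowest ESC library, and set 1 was the highest in both fractions. The log2 fold changes were -4.46 ± 0.24 (SE) in Eo- and -4.41 ± 0.25 in Eo+. Gbx2 (XLOC_003794, chr1:89927956-89931179, minus strand), a homeobox factor downstream of Stat3, held 41.7, 43.6, 45.1 and 35.2 in ESC, 1.55, 2.11, 1.28 and 1.83 in Eo- and 1.19, 1.99, 0.813 and 2.07 in Eo+. Among these 5 genes it kept the smallest share, 4.11% of ESC in Eo- and 3.69% in Eo+. Both fractions overlapped, and sets 2 and 6 were above sets 1 and 5 in each.

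Klf5 (XLOC_022313, chr14:99298522-99397355, plus strand), a Krüppel-like factor of the naive network, held 153, 119, 136 and 122 in ESC, 22.6, 15.7, 14.1 and 13.4 in Eo- and 14.7, 13.1, 17.0 and 12.5 in Eo+. Socs3 (XLOC_013850, chr11:117966079-117970118, minus strand), the feedback inhibitor of Jak and Stat signalling whose promoter stretch is printed above, held 108, 110.2, 86.2 and 48.0 in ESC, 6.17, 8.34, 6.58 and 6.45 in Eo- and 7.24, 6.27, 8.05 and 7.23 in Eo+. ESC library 6 was the lowest, while the 8 day 3 libraries lay within 6.17 to 8.34. Pim1 (XLOC_030057, chr17:29490812-29496111, plus strand), a serine/threonine kinase, held 141, 192, 146 and 171 in ESC, 35.9, 44.2, 29.8 and 40.9 in Eo- and 23.5, 27.1, 21.3 and 32.1 in Eo+. It retained the most of the 5 genes, 23.2% in Eo- and 16.0% in Eo+, and in every set the Eo+ library was below its Eo- partner. ESC libraries differed little for Klf4, Gbx2, Klf5 and Pim1, and the median SD over the ESC libraries for the 5 genes was 0.17 on the log2 scale.

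The wider naive pluripotency list held 25 genes, and the rule itself split it by the distance between the fractions, so its counts are a description. All 25 listed genes were called lower in Eo-, 23 were lower in both fractions (26.2% of all tested loci), and 3 (Klf4, Klf5 and Gbx2) were members. A further 13 fell to at most 25% in both fractions but stood more than 1.5-fold apart, and 9 kept more than 25% in a fraction. Within the list, 19 of 25 genes were called lower in Eo+ than in Eo- and 2, Tbx3 and Tdgf1, higher. Over all tested loci, 24.0% were called lower and 23.1% higher in Eo+ than in Eo-. Nothing about the members is read from these counts, since the rule bounded their own difference between the fractions.

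**Figure D2:**
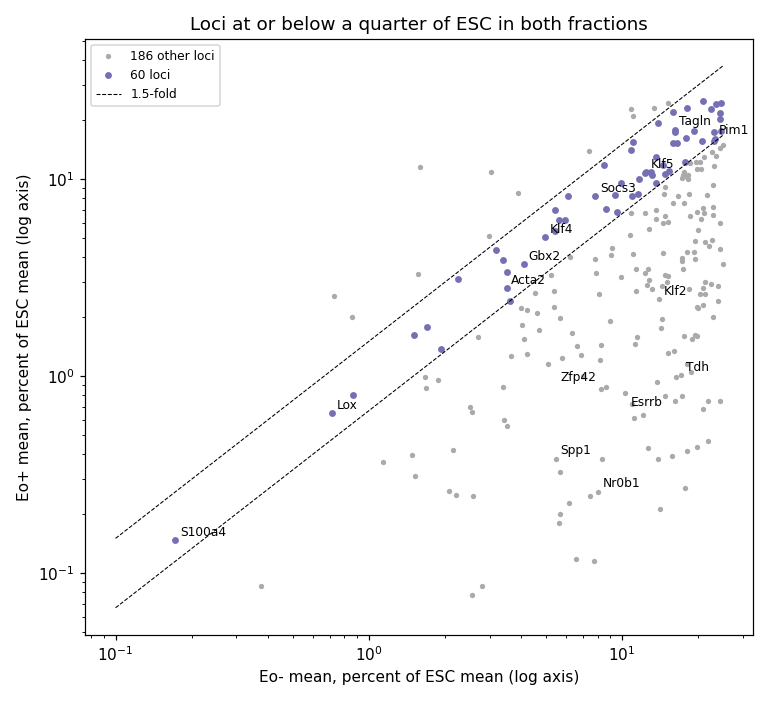
Eo- mean against Eo+ mean, each as percent of the ESC mean on log axes, for the 246 named loci at or below 25% of ESC in both fractions. Dashed lines mark a 1.5-fold difference, the 60 loci lie between them by construction, and 174 of the 186 other loci lie below the lower line.

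The receptor and kinase genes Lifr, Il6st and Jak1 stayed above 25% of their ESC level in both fractions. Of 14 genes on the LIF, gp130 and Stat3 list, 10 were called lower in both fractions (26.2% of all tested loci) and 4 were members. Lifr, the LIF receptor subunit, had a mean of 39.1 in ESC, 25.5 in Eo- and 51.9 in Eo+, lower in Eo- (adjusted p = 2.97e-04) and higher in Eo+ (adjusted p = 0.00927). Il6st, which encodes gp130, had means of 64.7, 39.6 and 50.4, and its call in Eo+ (log2 fold change -0.43 ± 0.16 SE, adjusted p = 0.026) was lost without ESC library 1 (-0.36), without Eo+ library 5 (-0.25) and with library totals as scaling (-0.36). Jak1 rose in Eo+, from 38.1 to 63.8 (adjusted p = 3.16e-06), and stood at 42.9 in Eo- (adjusted p = 0.183). Stat3 fell from 128 to 27.2 in Eo- and 34.7 in Eo+ (log2 fold changes -2.28 ± 0.16 and -1.94 ± 0.16), so that it stayed above the 25% limit in Eo+. Bcl3, a Stat3-induced regulator of NF-kappa-B signalling, fell further, from 32.5 to 0.870 and 0.505. Socs2, a relative of Socs3, was not called in either fraction and held 117, 118 and 123.

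Regulators of transcription and chromatin made up 7 further members, with a median residual of 16.1% in Eo- and 12.2% in Eo+. Arid5b (XLOC_007905, chr10:68092332-68278726, minus strand), a DNA-binding cofactor of histone demethylation, held 192, 136, 113 and 123 in ESC, 17.4, 13.04, 12.1 and 11.2 in Eo- and 13.1, 7.90, 10.03 and 7.10 in Eo+. Tfeb, a master regulator of lysosomal genes, kept 5.96% and 6.21%, with ESC libraries at 35.6 to 60.02 and day 3 libraries at 1.78 to 4.77. Tet2, which oxidises 5-methylcytosine, lay at 23.0 to 43.0 in ESC and at 2.23 to 4.36 at day 3. Tfap2c, a transcription factor of trophoblast and germ cells, lay at 38.7 to 50.5 in ESC and at 5.13 to 13.6 at day 3, where Eo- library 1 (13.6, 5.23, 5.13 and 5.16 across Eo-) stood above the other 7. The chromodomain protein gene Cdyl2 (39.6 to 57.9 in ESC, 4.60 to 9.41 at day 3), the Hedgehog effector Gli1 (51.6 to 87.7 and 10.9 to 14.8) and the early response gene Egr4 (5.54 to 9.30 and 0.408 to 1.86) completed the group. In 5 of the 7, ESC library 5 was the lowest.

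Genes of the cytoskeleton and adhesion numbered 9, and among them were members with the deepest falls. Fblim1 (XLOC_051868, chr4:141576038-141606096, minus strand), a filamin-binding adaptor of focal adhesions, held 218, 279, 196 and 292 in ESC, 41.5, 46.0, 44.7 and 43.8 in Eo- and 34.02, 41.7, 44.9 and 39.4 in Eo+. Tns3 (XLOC_011499, chr11:8431652-8671712, minus strand), a tensin, held 226, 186, 174 and 167 in ESC, 53.1, 43.0, 40.6 and 46.4 in Eo- and 38.7, 39.1, 38.1 and 35.7 in Eo+. Their ESC libraries spanned 1.49-fold for Fblim1 and 1.36-fold for Tns3. The fractions overlapped for Fblim1, while every Eo+ library of Tns3 lay below every Eo- library. Acta2 (XLOC_036554, chr19:34241090-34255336, minus strand), smooth muscle actin, held 120.3, 72.0, 208 and 38.6 in ESC, 3.70, 4.92, 2.62 and 4.08 in Eo- and 2.51, 2.90, 2.80 and 4.01 in Eo+. Tagln (XLOC_072554, chr9:45929628-45936058, minus strand), an actin-binding protein of contractile cells, held 141, 185, 355 and 81.0 in ESC, 21.04, 39.2, 18.3 and 44.4 in Eo- and 19.9, 38.7, 27.4 and 49.6 in Eo+. For both, ESC library 5 was the highest and ESC library 6 the lowest, with a 5.39-fold range for Acta2 and 4.39-fold for Tagln, and the lowest ESC library of Tagln was only 1.63-fold above its highest day 3 library.

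S100a4 and S100a6, neighbouring genes for small calcium-binding proteins, lay 6639 bases apart on the plus strand of chromosome 3 and were both members. S100a4 (XLOC_044225, chr3:90603770-90606045, plus strand) held 20.5, 7.87, 12.8 and 6.51 in ESC, 0.0132, 0.0144, 0.00550 and 0.00909 in Eo- and 0.0129, 0, 0.0156 and 0.00159 in Eo+, of which Eo+ libraries 2 and 6 were below the level of 3 counts. S100a6 (XLOC_044227, chr3:90612684-90623812, plus strand) held 92.5, 80.9, 130.1 and 51.9 in ESC, 5.55, 4.93, 4.93 and 4.59 in Eo- and 6.83, 3.06, 7.79 and 4.43 in Eo+. S100a6 thus kept 5.64% and 6.23% of its ESC mean, and for both genes ESC library 6 was the lowest. Tm4sf1, a tetraspan membrane protein, held 9.37, 3.48, 5.00 and 2.98 in ESC, 0.0551, 0.00918, 0.0330 and 0.0442 in Eo- and 0.0543, 0.0119, 0.0326 and 0.0286 in Eo+. Icam1, an adhesion receptor for leukocyte integrins, lay at 75.02 to 101.3 in ESC and 4.87 to 9.31 at day 3, and Lmna, which encodes lamin A/C, at 44.0 to 57.4 and 6.12 to 11.5. Lmna was among the 23 members with a higher mean in Eo+ (10.1 ± 1.51) than in Eo- (7.27 ± 0.979; SD, n = 4).

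Genes of the matrix, of proteases and of secreted factors formed the largest group, with 13 members and a median residual of 11.6% in Eo- and 8.36% in Eo+. Thbs1 (XLOC_038817, chr2:118111876-118127161, plus strand), the matrix glycoprotein thrombospondin 1, held 211, 90.9, 149 and 60.8 in ESC, 4.39, 3.96, 3.16 and 5.77 in Eo- and 6.74, 2.30, 7.36 and 3.501 in Eo+. Lox, which cross-links collagen, held 45.8, 15.5, 35.9 and 10.1 in ESC, 0.278, 0.138, 0.179 and 0.131 in Eo- and 0.0802, 0.236, 0.184 and 0.154 in Eo+. In both genes ESC libraries 1 and 5 were the higher ones, and the fractions overlapped.

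The group also held Col12a1, a fibril-associated collagen, which lay at 19.8, 5.41, 8.97 and 4.07 in ESC, at 0.226, 0.104, 0.0907 and 0.116 in Eo- and at 0.343, 0.0464, 0.0922 and 0.0968 in Eo+, where library 1 was the highest. Timp1, an inhibitor of metalloproteinases, held 76.5, 53.4, 96.9 and 45.3 in ESC, 9.23, 11.1, 10.8 and 10.3 in Eo- and 6.73, 7.16, 8.39 and 7.54 in Eo+, with every Eo+ library under every Eo- library. Plaur, the urokinase receptor whose promoter stretch with an AP-1 match is printed above, held 33.7, 36.3, 38.5 and 23.0 in ESC, 5.47, 5.57, 3.98 and 5.83 in Eo- and 7.95, 3.63, 10.1 and 7.28 in Eo+. The BMP antagonist Grem1 lay at 5.06 to 25.4 in ESC and at 0.293 to 0.686 at day 3. The locus of Pcolce, a collagen-processing enhancer that was assembled together with Fbxo24, lay at 78.7 to 105 in ESC and at 5.69 to 11.7 at day 3. Further members were the CCN family gene Wisp1 (2.04 to 9.02 in ESC, 0.442 to 0.790 at day 3), the proteoglycan gene Cspg5 (3.40 to 7.07 and 0.279 to 0.669), the serine protease gene Prss23 (8.36 to 32.2 and 2.17 to 7.69), the peptidase gene Mme (17.7 to 34.6 and 4.43 to 6.60) and thrombomodulin, Thbd (2.47 to 10.6 and 0.601 to 2.21). The gap between the lowest ESC and the highest day 3 library was smallest for Prss23, at 1.09-fold, and was 1.12-fold for Thbd.

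The rule took only group means, but a few high libraries can raise a mean. The spread between libraries is therefore not independent of how the members were chosen, and it is given as a description. This spread was wide for many members in ESC and in Eo+. The median SD over the 4 ESC libraries was 0.40 on the log2 scale (CPM with TMM scaling) for the 60 loci, against 0.15 for 10189 tested loci with an ESC mean of at least 5. The SD exceeded 0.33, the 90th percentile of those loci, for 36 members, and exceeded 0.6 for 17 members and for 1.67% of the 10189 loci. The 17 included 8 of the 13 matrix and protease genes and 4 of the 9 cytoskeletal and adhesion genes, but none of the LIF response and naive genes and none of the transcription and chromatin regulators. ESC library 6 was the lowest for 15 of the 17, and ESC libraries 1 and 5 were both above libraries 2 and 6 for 13 of them. At day 3 the SD exceeded 0.6 for 18 members in Eo+, 11 of them also among the 17, and for 7 in Eo-, against 2.84% and 0.893% of the 10189 loci. The median SD of the 60 loci was 0.38 in Eo+ and 0.27 in Eo-, where the members stand at much lower levels, against 0.11 and 0.12 for the 10189 loci. Over all 60 loci, 34 were lowest in ESC library 6 (35.0% of the 10189 loci), 21 had libraries 1 and 5 on top (18.9%), and 13 had the reverse order (21.1%).

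Fibroblast matrix genes moved with the same libraries. The summed level of 30 fibroblast matrix genes, 3 of them members (Thbs1, Lox and Col12a1), was 1353, 759.7, 1165 and 653 in the ESC libraries, 346 to 446 in Eo- and 463 to 794 in Eo+. Col1a1, a fibrillar collagen of fibroblasts, stood at 92.9, 53.2, 77.8 and 31.7 in ESC and at 1.45 to 5.00 at day 3. Of the 29 matrix genes tested, 20 were called lower in both fractions (26.2% of all tested loci) and 3 higher in both (24.5%), and 7 were called higher and 6 lower in Eo+ than in Eo-. The 7 members on the fibroblast and contractile lists (Thbs1, Lox, Col12a1, S100a4, S100a6, Acta2 and Tagln) deviated from their ESC mean by a median of 0.88, -0.36, 0.63 and -0.94 on the log2 scale in ESC libraries 1, 2, 5 and 6, while the 5 LIF and naive members deviated by 0.02, 0.19, 0.04 and -0.10. As whole lists, fibroblast matrix genes had medians of 0.67, -0.43, 0.27 and -0.46, and fibroblast surface genes 0.52, -0.24, 0.37 and -0.70. The cytokine, chemokine and protease list had 0.55, -0.30, 0.39 and -0.37. The contractile list as a whole was not raised in library 1, with medians of -0.03, 0.02, 0.65 and -0.55 over 13 genes. Its members Acta2 and Tagln had medians of 0.09, -0.11, 1.14 and -1.12. The 8 trophoblast and extra-embryonic genes, none of them members, had medians of 0.10, 0.04, 0.54 and -0.68. The part of feeder cells in the members' ESC levels was not tested.

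**Figure D3:**
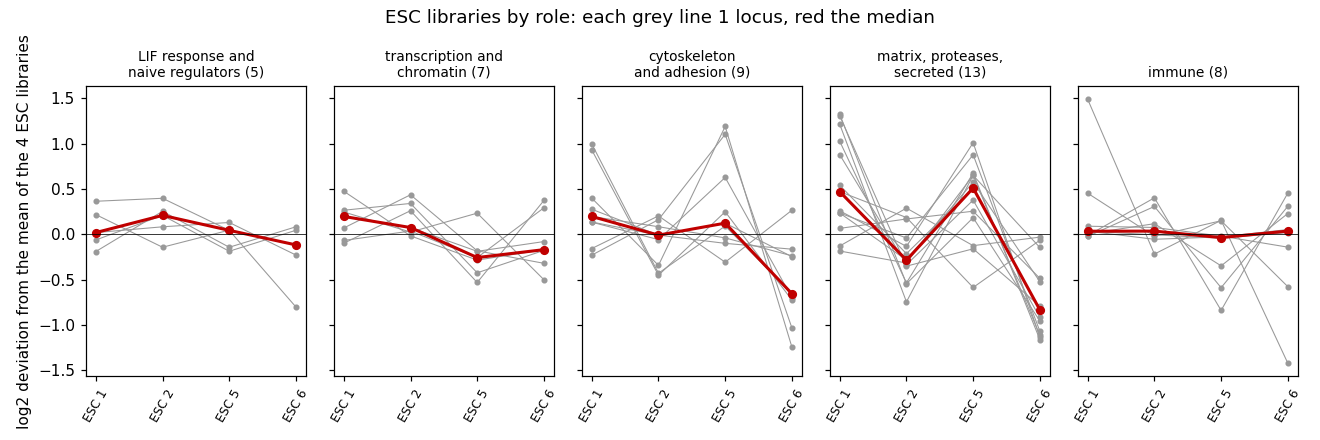
Deviation of each ESC library from the mean of the 4 ESC libraries (log2, vertical axis) for members of 5 role groups, with 1 grey line per locus and the median in red. The matrix and protease group shows libraries 1 and 5 up and library 6 down. The median of the LIF response and naive group stays close to 0, while its member Socs3 is low in library 6.

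Leaving out ESC libraries 1 and 5 together, an alternative chosen after the data were seen, left 52 loci meeting the rule, 48 of them members. The 12 members lost were Cd80, Cdkn2a, Col12a1, Cyp1b1, Il1rl1, Mme, Prss23, Tagln, Thbd, Tm4sf1, Tns3 and Wisp1. Klf4, Klf5, Gbx2, Socs3, Pim1, Acta2, Lox and Thbs1 were kept. The residual level at day 3 was not the same in all groups of members, which is given as a description. On CPM with TMM scaling, the 7 fibroblast and contractile members kept a median of 1.74% to 3.63% of the ESC mean in the 8 day 3 libraries. The 5 LIF and naive members kept 6.89% to 9.24%, and the other 48 members 10.04% to 13.6%. Of the 7, Acta2 and Tagln alone kept 5.85% to 14.4%. Members had passed the 25% limit, and the full lists kept more: 16.6% to 29.4% for fibroblast matrix, 13.4% to 31.3% for fibroblast surface and 48.0% to 71.1% for contractile genes. The full naive list kept 1.79% to 17.2%, and the full LIF list 18.7% to 26.8%.

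Genes best known from immune cells contributed 8 members. The locus joining Fcgr2b and Fcgr3, receptors for immunoglobulin G, held 5.42, 5.27, 5.13 and 5.36 in ESC and 0.186 to 0.441 at day 3, with the smallest ESC spread of all 60 loci (SD 0.04 on the log2 scale), and its reads cannot be split between the genes. Spn, the sialoglycoprotein CD43, was also even in ESC (17.6, 16.5, 16.8 and 17.8) and lay at 2.68, 3.17, 2.13 and 2.95 in Eo- and at 2.00, 3.40, 1.39 and 3.64 in Eo+. Il1rl1, the receptor for interleukin 33, varied the most in the group, at 11.7, 3.59, 4.64 and 1.55 in ESC, 0.321, 0.0393, 0.0206 and 0.0636 in Eo- and 0.272, 0.0834, 0.0510 and 0.222 in Eo+. Further immune members were the tetraspanin Cd37 (4.45 to 8.30 in ESC, 0.660 to 1.13 at day 3), the costimulatory ligand Cd80 (3.24 to 6.63 and 0.402 to 0.707), the interleukin 1 receptor kinase gene Irak2 (12.8 to 15.0 and 1.10 to 2.59) and the myosin gene Myo1g (3.31 to 8.14 and 0.0567 to 0.261). The pan-leukocyte gene Ptprc was at 0.221 to 0.367 in ESC and at 0.00794 to 0.0635 at day 3, and the 15 haematopoietic markers, none of which was a member, summed to 272 to 327 in ESC, 254 to 282 in Eo- and 212 to 234 in Eo+.

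Of genes tied to growth arrest and stress, 3 were members. Plk3, a polo-like kinase, held 44.4 to 60.1 in ESC and 5.65 to 8.29 at day 3. Gadd45b, a stress-induced gene, held 11.2 to 20.4 and 1.88 to 5.45. Cdkn2a, the locus of the cell cycle inhibitors p16 and p19Arf, held 5.47 to 9.04 in ESC, 1.65 to 2.16 in Eo- and 0.483 to 2.19 in Eo+.

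Channels, transporters and receptors added 5 members, of which Trpm1 varied the most in ESC of all 60 loci. Trpm1 (XLOC_062141, chr7:64153835-64269775, plus strand), a cation channel and the host of miR-211, held 20.8, 14.1, 6.04 and 2.68 in ESC, 1.62, 1.26, 0.973 and 0.846 in Eo- and 1.04, 2.39, 0.767 and 1.90 in Eo+. Its lowest ESC library was 1.12-fold above its highest day 3 library. Gjb1, a gap junction connexin with its lowest ESC level in library 5, held 5.12, 8.07, 1.94 and 5.32 in ESC, 0.0623, 0.151, 0.0728 and 0.0221 in Eo- and 0.195, 0.00662, 0.0922 and 0.0302 in Eo+. Gfra1, the receptor for glial cell line-derived neurotrophic factor, lay at 7.62 to 13.6 in ESC and at 0.660 to 1.49 at day 3. The calcium pump Atp2b4 (11.5 to 15.7 in ESC, 2.55 to 5.72 at day 3) and the adaptor Stac2 (10.5 to 20.5 and 2.78 to 4.35) were close to the 25% limit.

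The last 10 members had no common role. Klhl13 (XLOC_076845, chrX:23219262-23365129, minus strand), an adaptor of a Cullin ubiquitin ligase that was assembled together with Gm14523, held 342, 288, 327 and 312 in ESC, 40.8, 29.7, 41.1 and 36.1 in Eo- and 34.6, 28.5, 37.0 and 26.4 in Eo+, with less than 1.5-fold between the libraries of any group. Mreg, a melanosome transport protein, held 85.9 to 121 in ESC and 8.81 to 16.3 at day 3. The lncRNA Gm26532, whose locus spans miR-24-2, held 11.5, 12.9, 13.2 and 8.61 in ESC, 1.71, 1.12, 1.06 and 1.15 in Eo- and 1.94, 1.18, 2.46 and 1.54 in Eo+. Ubap1l had an ESC order unlike the matrix genes, with 3.64, 6.69, 1.80 and 12.5 in the ESC libraries and 0.450 to 0.745 at day 3. The others were Lrrc2 (24.0 to 44.5 in ESC, 3.07 to 5.92 at day 3), Lrrc34 (16.6 to 30.1 and 2.87 to 5.37), the SOCS-box gene Spsb1 (10.2 to 23.7 and 3.07 to 3.77), the serpin gene Serpinb6c (6.97 to 16.1 and 0.234 to 0.528), Tmem40 (7.72 to 8.38 and 0.867 to 2.18) and the cytochrome gene Cyp1b1 (2.58 to 12.6 and 0.346 to 1.06).

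Although the rule held both fractions within 1.5-fold, limma called 6 of the 60 members between Eo+ and Eo-, against 47.1% of all tested loci. Pim1 (log2 difference -0.55 ± 0.16 SE), Mreg (-0.53 ± 0.18), Cdyl2 (-0.55 ± 0.18), Irak2 (-0.52 ± 0.20) and Tmem40 (-0.61 ± 0.18) were lower in Eo+, and Lmna (0.46 ± 0.16) was higher. The rule bounded this difference, so the count is given as a description. With the differentiation set as a block, 12 of 60 members were called, 11 of them lower in Eo+, against 9066 of 17207 tested loci. The 6 differences stayed under 2-fold, and the rule had bounded the means of both fractions to 1.5-fold.

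Differences between differentiation sets at day 3 were not used by the rule and could be tested. Eo- and Eo+ libraries of the same number came from the same differentiation, and a limma F-test of the set, with the fraction in the model, called 182 of 17207 loci (1.06%) and 2 members. Klf4 differed between sets (adjusted p = 0.0195), with 16.0 in Eo- and 15.3 in Eo+ of set 1 against 6.27 to 8.79 in the other 6 libraries. Tagln differed as well (adjusted p = 0.0313), with 39.2 and 38.7 in set 2 and 44.4 and 49.6 in set 6 against 18.3 to 27.4 in sets 1 and 5. The remaining 58 members were not called. In a single run on simulated counts this test gave more false calls than its threshold aims at. At an unadjusted p under 0.05 there were 17 of 60 members (28.3%), against 20.4% of all tested loci. Without set 1 there were 7 of 60 members, against 1944 of 17207 tested loci.

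The calls changed when a set was left out. Without set 1 no member was called and 23 loci were (Klf4 adjusted p = 0.498, Tagln 0.146). Without set 2 (106 loci) or set 6 (131 loci) Klf4 was called and Tagln was not (adjusted p = 0.0597 and 0.124), and without set 5 381 loci were called, Arid5b, Klf4 and Tagln among them. With all 12 libraries in the fit 0 loci were called (Klf4 adjusted p = 0.475, Tagln 0.705). In that fit 30 of 60 members had an unadjusted p under 0.05, against 3142 of 17207 tested loci. With library totals as scaling 111 loci were called, Klf4 but not Tagln among them (adjusted p = 0.0662), whereas edgeR called 150 loci and both genes. Set 1 also stood apart in other genes: the trophoblast and extra-embryonic list summed to 1309 in Eo- and 2823 in Eo+ of set 1, against 309 to 479.6 and 811 to 1308 in the other sets, and their part in the difference of Klf4 was not tested. Gbx2, Pim1, Socs3 and Klf5 had adjusted p-values of 0.158, 0.113, 0.957 and 0.374 in the F-test.

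**Figure D4:**
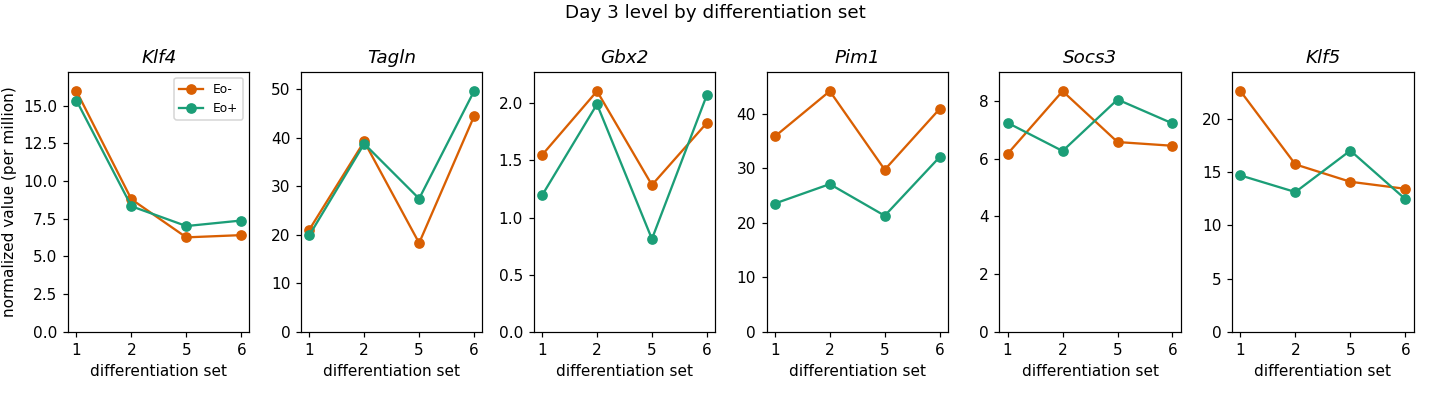
Normalized value of 6 members in the Eo- and Eo+ library of each differentiation set at day 3, with 1 point per library and lines joining libraries of a fraction. Klf4 is highest in set 1 in both fractions (16.0 and 15.3), and Tagln is highest in sets 2 and 6 (38.7 to 49.6).

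Loci near the members were examined because they are no members and have their own tests. Within 20 kb of 48 members lay 82 other tested loci, of which 37 (45.1%) were called lower in both fractions, against 26.2% of all tested loci, and 10 (12.2%) higher in both, against 24.5%. By class, 23 of 61 protein-coding neighbours were lower in both (24.3% of all protein-coding loci), as were 5 of 9 annotated lncRNAs (28.2%) and 9 of 12 loci with no annotated gene (39.8%). The share was 20 of 37 within 5 kb, 63 of 151 within 50 kb and 30 of 66 for neighbours that overlapped no member, windows that were chosen after the data were seen. No test of these shares was made.

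Several neighbours of the LIF and naive members fell with them. D130058E05Rik (XLOC_001215, chr1:89930134-89934185, plus strand), a lncRNA that overlaps the start of Gbx2 on the opposite strand, had means of 3.10 ± 0.599 in ESC, 0.720 ± 0.235 in Eo- and 0.582 ± 0.260 in Eo+ (SD, n = 4), with limma adjusted p-values of 2.16e-05 and 4.16e-06. A locus without an annotated gene within the span of Klf5 on the same strand (XLOC_022318, chr14:99338820-99351329, plus strand) went from 0.842 to 0.0619 and 0.00556 (adjusted p = 1.62e-05 and 8.86e-07), its Eo+ libraries lying at 0 to 0.0159. Another such locus, 5887 bases from Socs3 on the opposite strand (XLOC_011252, chr11:117976005-117980824, plus strand), went from 0.530 to 0.0283 and 0.00741 (adjusted p = 3.07e-06 and 3.56e-07). Counting used the strand, and reads that 2 loci share on a strand were not counted for either.

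Among neighbours of other members, S100a3, which lies 1067 bases before S100a4, went from 0.727 ± 0.430 to 0.0753 ± 0.0383 and 0.0546 ± 0.0271 (adjusted p = 2.41e-04 and 9.32e-05). At the Icam cluster, Icam5 fell from 1.30 to 0.295 and 0.147 (adjusted p = 6.01e-06 and 2.70e-07), while Icam4, which lies between Icam1 and Icam5, was not called in either fraction, with means of 0.773, 0.6003 and 0.821. Lrriq4, which overlaps Lrrc34 on the opposite strand, fell from 5.37 to 0.699 and 0.138 (adjusted p = 2.46e-07 and 8.72e-09). A locus on the opposite strand within the Fcgr2b and Fcgr3 span (XLOC_002263, chr1:170977425-170986488, plus strand) went from 12.1 to 0.457 and 0.0805. In the opposite direction, Tead2, a TEAD-family transcription factor gene that overlaps Cd37 on the opposite strand, rose from 141 to 347 and 452 (adjusted p = 3.20e-08 and 1.07e-09), and Mdfi, which overlaps Tfeb on the opposite strand, rose from 10.5 to 29.2 and 34.3 (adjusted p = 1.43e-06 and 1.39e-07).

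**Figure D5:**
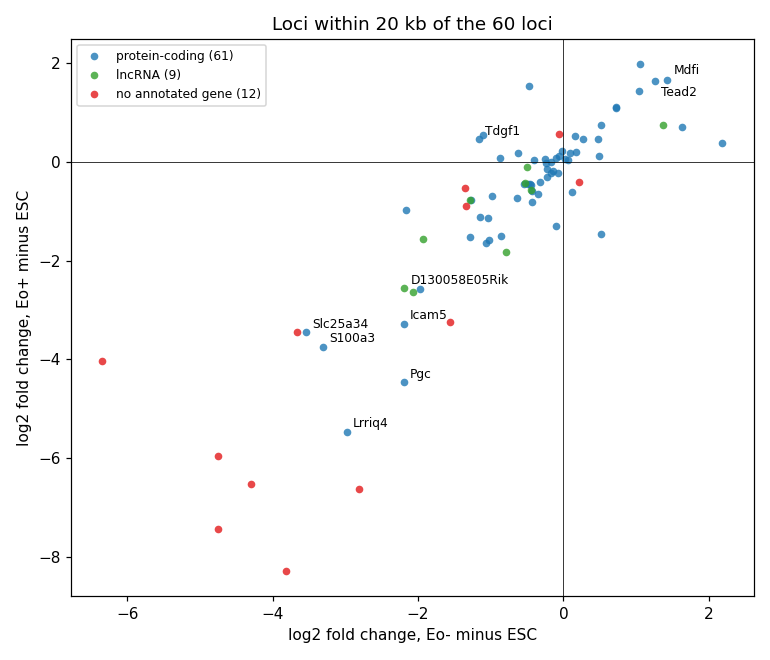
Log2 fold change of Eo- against ESC (horizontal) and of Eo+ against ESC (vertical) for the 82 tested loci within 20 kb of a member, coloured by class (61 protein-coding, 9 lncRNA, 12 without an annotated gene), with 1 point per locus. Loci called lower in both fractions number 37 and lie in the lower left, and both axes share the ESC libraries.

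The sequences before the members' starts were close to those of all genes in most respects. Over 72 RefSeq promoters of 46 member genes the median GC content was 56.0%, against 52.7% for all 32851 promoters in the table, and the median ratio of observed to expected CpG was 0.408 against 0.384. Motifs were searched on both strands of the 300-base window. The AP-1 site TGANTCA, bound by Fos and Jun proteins, was found in 11 member promoters (15.3%) and in 7.81% of all promoters, and in the bases before the start in 11.1% against 6.75%. The STAT site TTCNNNGAA was found in 9.72% against 8.30%, TATAAA in 11.1% against 13.6%, the TEAD site GGAATG in 15.3% against 14.7%, and ATGCAAA, part of the octamer, in 4.17% against 4.63%. The Esrrb site AAGGTCA was found in 2.78% against 4.72%, the E-box CANNTG in 68.1% against 72.3%, CCAAT in 31.9% against 37.4%, and the CArG box in 0 of 72 against 1.63%. Several promoters belong to the same gene, and a match describes letters in this window only.

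Other lists held few members, and the counts that follow are of tested genes called lower in both fractions, against 26.2% of all tested loci. The fibroblast surface list held S100a4 and S100a6 (10 of 16), the actin-based contractile list held Acta2 and Tagln (7 of 13), the injury and growth response list held Plaur (16 of 18), and the cytokine, chemokine and protease list held Timp1 and Il1rl1 (13 of 19). No member was on the two-cell-like list (18 of 18), the germline and meiosis list (18 of 23), or the haematopoietic (7 of 13), endothelial (0 of 9), neuronal (4 of 8), simple epithelium (2 of 10) and trophoblast (0 of 8) lists.

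The loci closest to each limit of the rule are given with no test. Cd80 and Thbd (ESC means with the added constant of 5.01 and 5.08) were just inside the ESC minimum, and Plau (4.97) and the joined locus of Trim16 and Fbxw10 (4.93) just outside. Stac2 and Atp2b4 (larger day 3 to ESC ratio 0.246 and 0.2497) were just inside the share limit, and Stmn2 (0.253) and Sfmbt2 (0.254) just outside. Tmem40 and Myo1g (1.49- and 1.496-fold between the fractions) were just inside the bound between the fractions, and E130012A19Rik (1.53) and Fgf18 (1.54) just outside. When any 1 of the 12 libraries was left out, 53 to 71 loci met the rule, and 31 members met it in all 12 cases, among them Klf4, Klf5, Gbx2, Socs3, Acta2, Lox and S100a4.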

How the data were processed

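Strand-specific poly(A) libraries, read in pairs of 100 bases, were mapped by the authors to mm10 with STAR, assembled into transcripts with Cufflinks 2.2.1 and merged into loci. The deposited counts are reads per merged locus from HTSeq 0.6.1, and the deposited normalized signal divides each count by 1 constant per library, as tested on the files. The deposited transcript annotation paired loci with gene names, and 97.7% of its matched reference transcripts were found in GENCODE M21, from which gene classes were taken. The members, gene lists, roles and analyses were chosen with earlier results of these data known.

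Counts of the loci in the normalized table with a group mean over 0.1 FPKM (17207 loci) were TMM-scaled and fitted with limma 3.58.1 (voom) on the 3 groups, with Benjamini-Hochberg adjusted p under 0.05 as the threshold. The set effect was an F-test in the 8 day 3 libraries with the fraction in the model. edgeR 4.0.16 (quasi-likelihood test), DESeq2 1.42.0, other scalings and filters, and leaving out each library in turn were alternatives. Python 3.11.15 and R 4.3.3 were used. The tests were each tried in a single run on simulated counts for the same loci, where the set effect gave more false calls than its threshold aims at.

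Libraries of the same number in Eo- and Eo+ shared a differentiation according to the study's methods, and their deviations from the group means correlated (r = 0.32, 0.38, 0.43 and 0.66). The methods assign the ESC libraries to the same sets, but for ESC with day 3 libraries of the same number the correlations ran from -0.17 to 0.44 and not every pair was above 0.1, so the block was kept as an alternative there. No libraries were duplicates (chi-square per degree of freedom at least 112). Locus counts of 648413022 to 837308168 per library leave counting error small beside the spread between libraries for all but the lowest values.

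Named with their values were the 3 members of each gene list with the highest ESC mean, the 8 members with the highest ESC mean, the 6 with the smallest Eo- to ESC ratio, the 3 with the largest and the 3 with the smallest SD over the ESC libraries, and the 2 loci on either side of each limit of the rule. The other members, their neighbours and the list genes that are no members were chosen after their values were seen. Sequences came from RefSeq on GRCm38.p6. Values of 2 members are not reported here.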

Additional observations from a re-analysis of the deposited data

Results flagged for a closer look

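A library stood far from the other 3 of its group in 8 of 138 groups of values examined, and chance gives this for about 1 in 20 groups. Over all members the same held for 12 of 180 groups (6.67%). Set 1 supplied most of the cases. Klf4 was at 15.3 in Eo+ library 1, against 7.02 to 8.33 in the other Eo+ libraries. Col12a1 was at 0.343 in the same library, against 0.0464 to 0.0968, and the locus of Atp2b4 and Mir6903 was at 5.72, against 2.55 to 3.07. Il1rl1 was at 0.321 in Eo- library 1, against 0.0206 to 0.0636. Thbd was at 2.14 in Eo- library 1, against 0.805 to 0.915, and at 10.6 in ESC library 1, against 2.47 to 3.83. The trophoblast and extra-embryonic list summed to 1309 in Eo- library 1, against 309 to 479.6 in the other Eo- libraries. The cytokine, chemokine and protease list summed to 286 in Eo+ library 6, against 247 to 252 in the others.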

How the results depend on the processing

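Of the results that answer a comparison, 116 values under alternatives kept their direction and stayed near the reported value, and 18 moved. Of the values of single genes, 788 kept their direction and side of the threshold, 15 lost significance in the same direction, 3 moved and 0 reversed. The number of loci meeting the rule followed its limits: 35 with the fractions at most 25% apart, 96 within 2-fold and 30 at 12.5% of ESC, and 53 to 71 without any 1 library. Requiring a 2-fold change as well left 2568 loci lower in Eo- than in ESC, 3519 lower in Eo+ than in ESC and 3469 differing in either direction between Eo+ and Eo-, and 22 neighbours lower in both fractions. Neighbours lower in both numbered 24 of 59 with at least 1 CPM in 4 libraries, 20 within 5 kb and 63 within 50 kb. The set effect was found at 111 loci with library totals, at 98 loci with at least 1 CPM, and at 23 (without set 1) to 381 loci (without set 5) when a set was left out. Library totals shifted the median log2 fold change of all loci to 0.10 in Eo- and 0.07 in Eo+.

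With the replicate number as a block, 5638 loci were called lower in Eo- than in ESC, 6387 lower in Eo+ than in ESC and 9066 in either direction between Eo+ and Eo-, neighbours lower in both numbered 38, and the set effect over all 12 libraries was found at 0 loci. Between the fractions the block called 12 members among its 9066 loci, and DESeq2 called 11 members among 8521 loci. On the TMM scale the median residual in Eo- was 11.7%, and 12.8% against the ESC library of the same number (the deviations of ESC and day 3 libraries bore out this pairing for some numbers only). It ran from 11.4% (without ESC library 5) to 12.8% (without ESC library 1). The spread between libraries limits the residual levels, since 17 members in ESC and 18 in Eo+ varied by more than 0.6 (SD, log2), and values near 3 counts, as for S100a4 at day 3, carry counting error as well.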
